A study of Mus musculus with 81 samples.

Results

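The bins described here are the 1-kb stretches of the mouse genome (build mm10) that lay in mH2A1 domains of hippocampal area CA1 in all 3 untrained mice and in neither of the 2 mice killed 30 min after contextual fear conditioning. A bin was taken as covered by a library when at least 50% of its bases, which is 3 of its 5 windows of 200 bp, lay in the domains called in that library. Members were thus selected on the mH2A1 domain coverage of these 5 libraries, and that coverage is given below as a description. The rule found 24534 such bins, called lost bins below, among 2725511 bins on chromosomes 1 to 19, X and Y. That is 0.900% of all bins, 3.19% of the 769715 bins covered in at least 1 of the 5 libraries, and 14.1% of the 174410 bins covered in all 3 untrained mice. For comparison, 94567 bins were covered in all 5 libraries (kept bins), and 11561 were covered in both trained and in no untrained mouse (gained bins).

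MacroH2A (mH2A) is a variant of histone H2A that carries a large globular macrodomain in addition to its histone fold. Mammals make it from separate genes, H2afy for mH2A1 and H2afy2 for mH2A2. It is best known from the inactive X chromosome and from broad silent domains, where it stabilises nucleosomes, and in neurons variants of H2A can be exchanged outside of cell division.

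All samples came from area CA1 of young adult male C57BL/6J mice. Untrained mice stayed in the home cage, and trained mice were killed 30 min, 1 h or 6 h after contextual fear conditioning, in which a foot shock is paired with a new context. Chromatin was digested with micrococcal nuclease, and each library of mH2A1 or mH2A2 ChIP-seq came from 1 mouse. At 30 min there were 3 untrained and 2 trained mice, and each gave an mH2A1 library, an mH2A2 library and 1 input that served both. At 1 h there were 2 untrained and 2 trained libraries of mH2A1 and 3 and 3 of mH2A2, and at 6 h 5 and 5 of mH2A1, all from other mice. RNA-seq was made of intact mice, 3 untrained and 2 trained (1 h). It was also made of mice injected in dorsal CA1 with AAV-DJ that expressed, under a U6 promoter, a scrambled shRNA (shScr) or one against H2afy or H2afy2. The depletion experiment had 3 home-cage mice for each of shScr, shH2afy and shH2afy2, and the training experiment had 3 untrained and 3 trained (1 h) mice for each of shScr and shH2afy. Bulk tissue holds infected and uninfected cells of every type, so fewer cells of a type and less RNA or mH2A per cell cannot be told apart.

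Several properties of the libraries bear on the lost bins. The domains of the 2 trained mice at 30 min covered 325 and 334 Mb of the genome, less than the 369, 416 and 409 Mb of the untrained mice. When every list was reduced to its strongest domains until all 5 covered the same number of bases, the rule found 11831 bins. The mH2A2 list of the second trained mouse at 30 min was the smallest of all 30 lists (226 Mb), and its share of kept bins covered fell from 80.6% in the class of lowest GC content (under 42%) to 36.1% in that of highest GC content (54% and more), where the first trained mouse went from 78.8 to 84.5%. The mH2A1 antibody was from Abcam at 30 min and from Thermo Fisher at 1 h and 6 h, so time and antibody cannot be told apart for mH2A1. The 2 untrained mH2A1 libraries of 1 h are named mH2A1 in their titles and macroH2A2 in their antibody labels; they were used by title, and among followed libraries they covered 566 and 646 Mb, near the other mH2A1 libraries of 1 h and 6 h (569 to 636 Mb) and above every mH2A2 library (226 to 446 Mb).

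As examples of sequence in lost bins, the middle 200 bp of a run in Dock6 and of a run in Dok7, both among the 3 longest, are given beside the middle of the run that reaches into Arc and that of the longest run of gained bins. All are mm10, plus strand, with each CpG, the dinucleotide that carries most DNA methylation, in capitals. The Dock6 sequence lies at chr9:21831400-21831599 and overlaps an exon, the Dok7 sequence at chr5:35076900-35077099 in an intron, the Arc sequence at chr15:74667400-74667599 downstream of the gene, and the gained sequence at chr2:18582900-18583099 outside genes.
Dock6: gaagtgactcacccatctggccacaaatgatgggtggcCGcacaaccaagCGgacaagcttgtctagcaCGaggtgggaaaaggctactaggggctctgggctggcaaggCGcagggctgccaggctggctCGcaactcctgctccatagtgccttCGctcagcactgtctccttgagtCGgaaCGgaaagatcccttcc
Dok7: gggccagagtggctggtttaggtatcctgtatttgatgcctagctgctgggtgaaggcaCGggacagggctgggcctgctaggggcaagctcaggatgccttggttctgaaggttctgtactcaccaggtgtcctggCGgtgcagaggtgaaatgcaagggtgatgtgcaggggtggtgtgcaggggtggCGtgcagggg
Arc: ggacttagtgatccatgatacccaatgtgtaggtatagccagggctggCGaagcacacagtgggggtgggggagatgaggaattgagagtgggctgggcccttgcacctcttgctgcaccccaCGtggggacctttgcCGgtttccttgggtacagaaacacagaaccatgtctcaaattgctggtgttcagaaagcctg
Gained: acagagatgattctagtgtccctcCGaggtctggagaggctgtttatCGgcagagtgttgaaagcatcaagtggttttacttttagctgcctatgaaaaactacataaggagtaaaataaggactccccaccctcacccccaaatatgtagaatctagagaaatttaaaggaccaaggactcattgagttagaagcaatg
They hold 8, 3, 3 and 2 CpG at 59.5, 60.5, 55 and 42% GC, in that order. The 3 from lost bins lie above the median of lost bins, 48.5% GC, and do not stand for lost bins in general. The middle 200 bp of the run in Prrx2, also among the 3 longest, held 1 CpG at 34.5% GC, below the gained sequence.

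In most lost bins the shares covered lay away from the limit of the rule. In 82.0% of lost bins no base was covered in either trained mouse. The higher of the trained values was 20% of the bin in 7.72% of lost bins and 40% in 10.3%. Such shares tell whether a bin lay in a called domain, and most domains were longer than a bin. They do not measure how much signal was lost. Just outside the rule lay 3973 bins covered in all untrained mice whose higher trained value was 60%. On the other side, 16897 lost bins were fully covered in all 3 untrained mice and 4237 had a lowest untrained value of 60%, while 5935 bins missed the rule with a lowest untrained value of 40%. In the untrained mice the domains that held lost bins were shorter and weaker than those that held kept bins. Their median length was 6.2, 6.2 and 8.6 kb in replicates 1 to 3, against 9.6, 10.0 and 14.2 kb for kept bins, and their median log2 of ChIP over input was 0.34, 0.45 and 0.32 against 0.46, 0.59 and 0.45.

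The lost bins formed 12302 runs of adjacent bins. Of these, 6364 (51.7%) were a single bin and 732 were runs of 5 bins or more, which together held 20.3% of all lost bins. A kept bin lay directly beside 11.2% of the runs. The longest run of lost bins had 23 bins and the longest of gained bins 6. Lost bins lay on every autosome, most on chromosome 11 (2161 bins), with 6 on X and 0 on Y, where only 204 and 46 bins were covered in all untrained mice.

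In base composition lost bins resembled kept bins and stood apart from gained bins. The median GC content was 48.5% in lost, 49.3% in kept, 43.8% in gained and 41.4% in all bins. The median number of CpG per kb was 11 in lost and kept bins, 7 in gained and 6 in all bins, and the median share of a bin in annotated repeats was 18.7, 17.2, 27.8 and 26.5%. Of the bins covered in all untrained mice, the share that was lost was highest at both ends of the GC scale, with 20.2% under 42% GC, 17.4% from 42 to 46%, 12.4% from 46 to 50%, 11.7% from 50 to 54% and 18.2% at 54% and above. The share gained of bins covered in both trained mice went in 1 direction, from 25.8% in the lowest GC class to 0.419% in the highest. These shares are set by the libraries of the rule and were not tested.

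**Figure D1:**
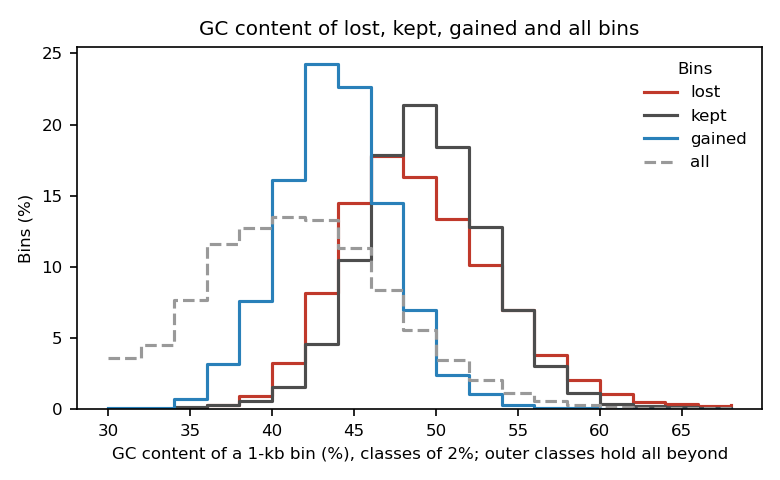
GC content of lost, kept, gained and all 1-kb bins in classes of 2% (x axis, %), as the share of each set of bins (y axis, %). The curves of lost and kept bins lie together near their medians of 48.5 and 49.3%, and gained bins lie lower, around 43.8%.

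Lost bins lay closer to genes than kept bins. Of the lost bins 5.16% overlapped a promoter (1 kb on either side of a gene start), 23.4% an exon, 28.5% an intron and 43.0% lay between genes. For kept bins these shares were 3.76, 17.7, 25.4 and 53.2%, and for all bins 2.26, 11.3, 33.1 and 53.3%. The median distance to the nearest start of a protein-coding gene was 24.0 kb for lost, 39.5 kb for kept, 65.5 kb for gained and 80.7 kb for all bins. Within 10 kb of such a start lay 28.2% of lost and 20.0% of kept bins. The share lost of bins covered in all untrained mice was 17.5% in promoters and 17.7% in exons, against 15.3% in introns and 11.8% between genes. Binding motifs of activity-regulated factors were searched on both strands. The AP-1 motif TGACTCA was in 16.5% of lost, 17.2% of kept and 14.3% of all bins, the cAMP response element TGACGTCA in 0.876, 0.777 and 0.523%, the E-box CACGTG in 14.6, 14.0 and 9.01%, and the EGR motif GCGTGGGCG in 0.196, 0.128 and 0.0620%. The EGR motif thus differed most between lost and kept bins in relative terms, but it was rare in every set. The part of GC content in these shares was not tested.

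**Figure D2:**
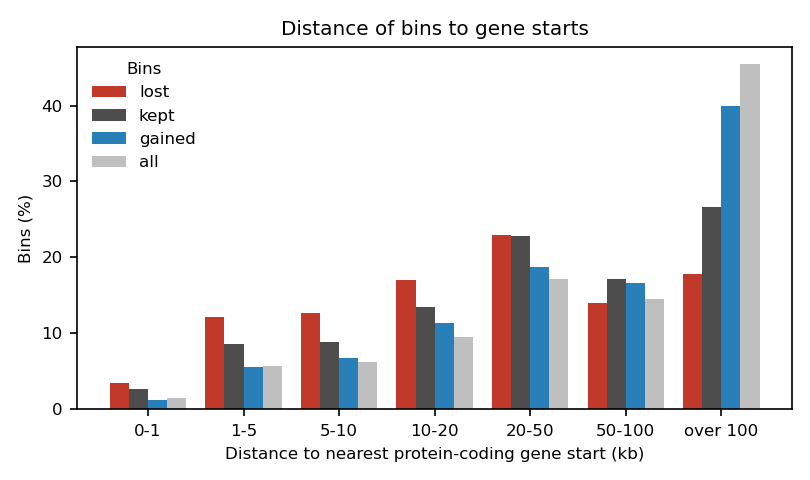
Distance of 1-kb bins to the nearest start of a protein-coding gene (x axis, kb) for lost, kept, gained and all bins, as the share of each set (y axis, %). Over 100 kb away lay 17.9% of lost, 26.6% of kept, 39.9% of gained and 45.4% of all bins.

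The 10 longest runs of lost bins, 17 to 23 kb long, had a median GC content of 52.0 to 57.4% and mostly lay in genes. The longest covered Dock6 and Angptl8, a secreted regulator of lipid metabolism (chr9:21820001-21843000). The others overlapped Prrx2, a homeobox gene (chr2:30845001-30866000), Dok7, an adaptor of the muscle kinase MuSK (chr5:35067001-35087000), Cpne5, a calcium-dependent membrane-binding protein (chr17:29214001-29234000), and Fibcd1, a chitin receptor and marker of CA1 pyramidal neurons (chr2:31825001-31844000). Further runs overlapped Jmjd7 and Pla2g4b (chr2:120030001-120049000), Ttc28 (chr5:111269001-111287000), Stk11, the kinase LKB1, with Cbarp and Atp5d (chr10:80121001-80139000), and Notch1, the receptor (chr2:26481001-26498000). The run at chr4:149874001-149892000 overlapped no gene. These runs were chosen for length in the libraries of the rule, where 92.9 to 100% of their bases were covered in the untrained and 0 to 1.18% in the trained mice.

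In the libraries that the rule did not use, the long runs differed among themselves. The runs in Prrx2, Cpne5, Fibcd1 and Notch1 and the run outside genes were near full mH2A1 coverage at 6 h, with 89.5 to 100% of their bases covered in all 10 libraries, trained and untrained alike. The run in Dock6 was covered to 80.0 to 100% at 6 h. The runs in Dok7, Jmjd7 with Pla2g4b, and Ttc28 were only partly covered in the same libraries, with 16 to 75%, 22.1 to 77.9% and 0 to 94.4% of their bases. The run of Stk11, Cbarp and Atp5d had no covered base in any of the 10 libraries. At 1 h it was at 0% in 3 of 4 mH2A1 libraries and at 25.6% in trained replicate 2, but in mH2A2 at 1 h it was covered to 95.6 to 100% in 5 of 6 libraries, the exception being untrained replicate 1 at 0%.

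**Figure D3:**
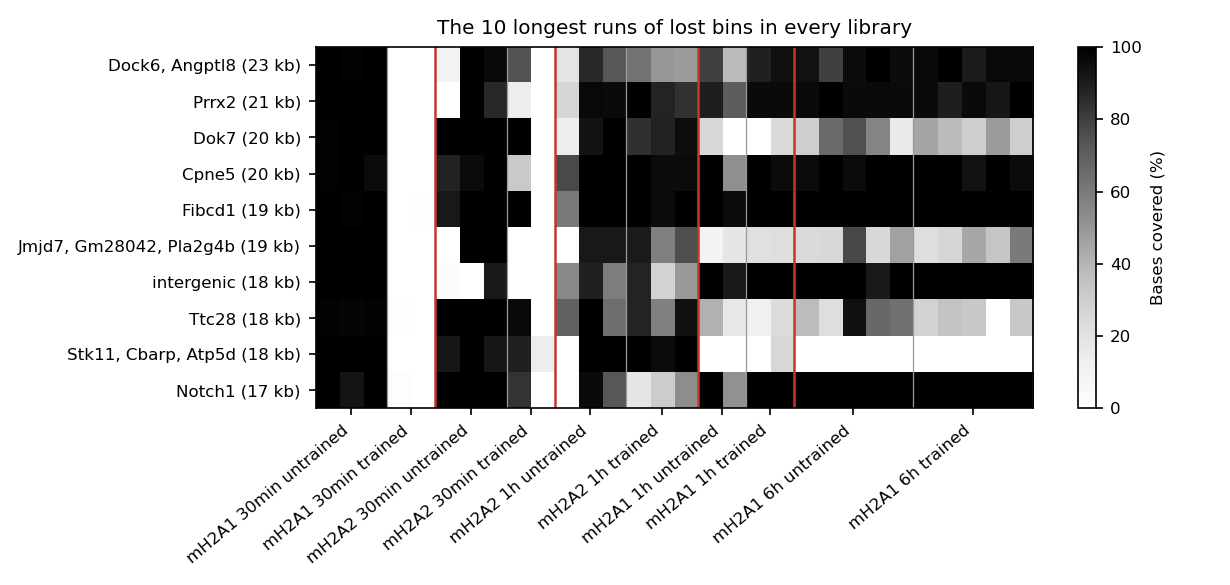
Share of the bases covered by domains (grey scale, %) in each of the 30 libraries (columns, by data set and group, in order of replicate) for the 10 longest runs of lost bins (rows, longest first). The first 5 columns are the libraries of the rule. The run of Stk11, Cbarp and Atp5d is white in all 10 mH2A1 libraries of 6 h and dark in most mH2A2 libraries.

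The first question was whether mH2A2 was also absent from the lost bins at 30 min. Fewer lost bins lay in mH2A2 domains in both trained mice than in any untrained mouse, but the libraries share the mice and the inputs of the rule, so they are no independent check of it. Of the lost bins, mH2A2 domains covered 46.9, 64.2 and 58.5% in the 3 untrained and 42.8 and 17.7% in the 2 trained mice. The groups did not overlap, and the lowest value was that of the trained library with the smallest list. The means were 56.5% ± 8.84 (SD, n = 3) and 30.2% ± 17.7 (SD, n = 2), a difference of -26.3 percentage points with an exact two-sided permutation p of 0.2, the smallest that 3 against 2 can give (0.4 adjusted over the 4 data sets followed). Of the kept bins, 71.5, 83.8 and 75.9% were covered in untrained and 71.3 and 45.8% in trained mice. The ratio of the share of lost bins to that of kept bins was 0.655, 0.766 and 0.771 against 0.6 and 0.387, again without overlap (exact permutation p = 0.2, adjusted p = 0.8). Lost and kept bins were both chosen by mH2A1 in these mice with these inputs, so the ratio is no independent check either. With all lists reduced to equal covered bases the difference was -12.1 points.

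Bin by bin, 1712 lost bins repeated the pattern in mH2A2, covered in all 3 untrained and neither trained mouse at 30 min. They were 7.86% of the 21779 lost bins with mH2A2 in at least 1 of these libraries, where the same pattern held for 3.33% of all bins so covered. As a share of the whole set, it held for 6.98% of lost, 5.43% of kept and 0.770% of gained bins. The opposite pattern, mH2A2 in both trained and no untrained mouse, held for 107 lost bins (0.491%, against 1.33% of all bins). Of the 1712 bins, 898 were covered in all 10 mH2A1 libraries of 6 h, 738 in all 4 of 1 h and 269 in all 6 mH2A2 libraries of 1 h.

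At 1 h, in other mice, the mH2A2 coverage of lost bins did not separate the groups. It was 42.9, 61.9 and 58.0% in untrained and 55.0, 43.4 and 58.2% in trained mice, and the ranges overlapped. The difference of means was -2.06 points (exact two-sided permutation p = 0.800, adjusted p = 0.800, where 0.100 is the smallest possible). Untrained replicate 1, the lowest, stood apart in composition too, for it covered 41.8% of gained bins, where the other 5 libraries covered 18.3 to 27.9%, and its covered bins had a median GC content of 45.1%, against 47.1 to 47.8%. Of the 22042 lost bins with mH2A2 at 1 h in at least 1 library, 197 (0.894%) were covered in all untrained and no trained mouse and 63 (0.286%) the other way, where 0.808 and 0.337% of all covered bins were.

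The second question was whether mH2A1 was present in these bins after 1 h and 6 h, and whether training still made a difference. At 1 h, mH2A1 domains covered 67.4 and 58.1% of the lost bins in untrained and 64.6 and 69.3% in trained mice. These overlapped (difference 4.17 points, exact two-sided permutation p = 0.667, adjusted p = 0.800, smallest possible 0.333). Lost bins covered in both untrained and no trained library numbered 350, or 1.78% of the 19631 covered in at least 1, where 3.3% of all covered bins had this pattern, and 585 (2.98%) had the opposite pattern, against 2.86% of all.

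At 6 h, the only data set large enough to pass 0.05, the 5 untrained libraries covered 70.9, 74.0, 77.6, 74.0 and 72.9% of the lost bins and the 5 trained libraries 71.8, 71.3, 71.6, 72.8 and 73.4%. The trained values lay inside the untrained range. The means were 73.9% ± 2.45 and 72.2% ± 0.880 (SD, n = 5 each), a difference of -1.66 points (exact two-sided permutation p = 0.190, adjusted p = 0.4). Without untrained replicate 1 the difference was -2.41 points with an exact permutation p of 0.0317, not adjusted. The ratio to kept bins was 0.828 ± 0.0161 and 0.825 ± 0.0110 (SD, n = 5 each, exact permutation p = 0.746). Only 8 lost bins (0.0375%) were covered in all 5 untrained and no trained library and 2 (0.00937%) the other way, with 0.0232 and 0.0258% among all bins covered at 6 h.

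**Figure D4:**
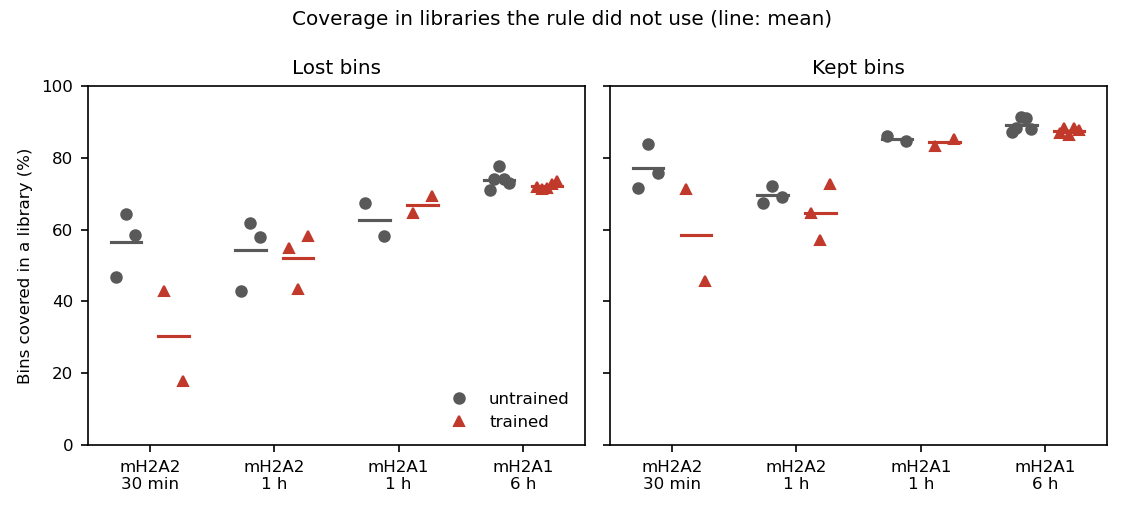
Share of lost bins (left) and kept bins (right) covered by domains in each library (y axis, %) for the 4 data sets that the rule did not use. Each point is 1 mouse, circles untrained and triangles trained, and lines are group means. For lost bins the groups lie apart in mH2A2 at 30 min, 46.9 to 64.2% against 17.7 and 42.8%, and overlap in the other data sets. The mH2A2 libraries of 30 min share the mice and inputs of the rule, so they are no independent check of it. The value of 17.7% is from the smallest list.

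Across the 14 mH2A1 libraries of 1 h and 6 h, 8986 lost bins (36.6%) were covered in every one, against 69.5% of kept and 17.2% of gained bins. Conversely, 2994 lost bins (12.2%) were covered in none. The coverage depended on GC content. In the highest GC class (54% and more), untrained mice at 6 h covered 41.9 to 59.1% and trained mice 43.0 to 48.7% of the lost bins, where kept bins of the same class were covered to 89.7 to 94.0% and 89.9 to 92.0%. From 46 to 50% GC, lost bins were covered to 81.0 to 85.0% in untrained and 80.9 to 83.0% in trained mice at 6 h, closer to kept bins at 89.1 to 93.2% and 88.3 to 90.2%. Under 42% GC the order of the sets turned, with 66 to 69.9% of lost and 39.8 to 57.3% of kept bins covered in untrained mice. In mH2A2 at 1 h, lost bins of the highest GC class were covered more often than those of the lowest in 5 of 6 libraries. Trained mice covered 20.3 to 31.3% of the lost bins under 42% GC and 59.2 to 79.9% of those in the highest class. Untrained replicates 2 and 3 went from 26.6 and 27.6% to 86.2 and 79.2%. Untrained replicate 1 went the other way, from 46.4% under 42% GC to 20.1% in the highest class. These directions were not particular to lost bins. Trained mice covered 45.98 to 58.63% of kept bins under 42% GC and 62.55 to 77.7% in the highest class. In untrained replicate 1 the share of kept bins fell from 77.05 to 49.35%. Of all bins, trained mice covered 2.321 to 3.816% in the lowest class and 42.1 to 61.14% in the highest. Untrained replicate 1 rose there, from 7.163 to 18.39%.

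Genes near the lost bins were taken as those whose body, extended by 10 kb on each side, overlapped a lost bin. They were 9671 of 55413 annotated genes (17.5%) and 5396 of 21938 protein-coding genes (24.6%), and near protein-coding genes were longer (median 20.9 kb) than the others (16.4 kb). The most lost bins lay at Gm20388 (261 bins) and Fgfr2 (75), whose annotated spans are 4435 and 2961 kb, followed by Gse1 (53), Camta1, a calmodulin-binding transcription activator (51), Cacna1i, a T-type calcium channel (46), Ttc28 (45), Plch2, a phospholipase C (41), Mad1l1, a spindle checkpoint protein (40), Dock6 (39) and Shisal1 (38). At Camta1 and Mad1l1 the lost bins were often in mH2A2 domains of trained mice at 1 h and less often in mH2A1 domains of 6 h. Values of mH2A2 in untrained mice are not given for these genes. Of the 51 bins of Camta1, 46 to 50 were covered by mH2A2 in trained mice at 1 h, and 14 to 35 by mH2A1 at 6 h over both groups. Of the 40 of Mad1l1, these were 32 to 39 and 2 to 19. At Fgfr2, mH2A1 covered 48 to 67 of the 75 bins at 1 h and 62 to 69 at 6 h. At Cacna1i, mH2A1 at 6 h covered 36 to 45 of 46 bins in untrained and 30 to 34 in trained mice, which did not overlap. This gene was singled out after its values were seen, and the difference was not tested. How many other genes lacked overlap is not given. Over all lost bins the groups overlapped at 6 h, with 70.9 to 77.6% covered in untrained and 71.3 to 73.4% in trained mice.

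By function, 11 of 47 immediate early genes had a lost bin within 10 kb (23.4%, near the 24.6% of protein-coding genes), namely Arc, Arl4d, Atf3, Dusp1, Dusp5, Fosl2, Gadd45b, Maff, Plk3, Sik1 and Spry4. So had 8 of 26 glutamate receptor genes (30.8%), among them Grin1 and Grin2a, the obligate and a common subunit of the NMDA receptor, and 2 of 19 GABA-A receptor genes (10.5%). The counts were 6 of 37 for synaptic adhesion genes (16.2%), 4 of 12 for glucocorticoid-responsive genes (33.3%) and 9 of 17 for interferon-response genes (52.9%). Of the cell type markers, those of CA2 and CA3 neurons (5 of 6) and endothelium (4 of 5) were most often near a lost bin, followed by CA1 neurons (3 of 7), choroid plexus (2 of 5), inhibitory neurons and oligodendrocytes (3 of 8 each), microglia (2 of 9), dentate granule neurons (1 of 5), astrocytes (1 of 7) and blood (0 of 5). Large clustered families differed, with 7.54% of 1405 olfactory receptor genes and 40.4% of 57 clustered protocadherins near a lost bin. Genes of a cluster lie close together, so 1 lost bin can count for several of them. The part of gene length and GC content in these shares was not tested.

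In intact mice 1 h after training, 3 of the 4075 tested genes near lost bins rose and 0 fell at an adjusted p under 0.01 (0.0736%), where 0.0959% of all 15638 tested genes were called. The 3 were Arc, Sik1 and Per2. Arc, whose product acts at synapses to regulate AMPA receptors, was at 74.4, 91.7 and 115 CPM (counts of a gene scaled to library size) in untrained and 431 and 365 CPM in trained mice. Its log2 fold change was 2.09 ± 0.168 (SE, adjusted p = 0.00676, edgeR quasi-likelihood test). Sik1, a kinase induced by cAMP signalling, was at 9.93, 8.74 and 10.7 CPM in untrained and 27.2 and 26.8 CPM in trained mice (log2 fold change 1.46, adjusted p = 0.00185). Per2, a component of the circadian clock, was at 27.0, 27.5 and 28.1 against 48.1 and 43.7 CPM (log2 fold change 0.73, adjusted p = 0.00676). All 3 were above every untrained value in both trained mice. The count is small and depends on the fit. DESeq2 called 110 near genes (2.11% of 5201, against 2.39% of all). Without untrained replicate 2, edgeR called 128 near genes (3.17%, against 2.68% of all). Without untrained replicate 3, edgeR called 0 near genes (against 0.0129% of all).

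The other 9 near immediate early genes did not pass 0.01. Dusp5, a phosphatase of the ERK pathway, was at 14.1, 10.2 and 11.4 CPM in untrained and 26.7 and 30.3 CPM in trained mice (log2 difference 1.25, adjusted p = 0.0154, edgeR). Spry4, an inhibitor of the same pathway, was at 16.9, 16.7 and 17.2 against 25.7 and 27.8 CPM (0.65, adjusted p = 0.0131). Gadd45b, a stress-response gene linked to DNA demethylation, was at 11.8, 10.6 and 10.8 against 16.5 and 19.7 CPM (0.70, adjusted p = 0.0290). Maff, Dusp1, Arl4d, Plk3 and Atf3 had log2 differences of 0.50 to 1.52 and adjusted p of 0.0498 to 0.154 (edgeR). Fosl2, an AP-1 subunit, differed by 0.21 (adjusted p = 0.276, edgeR). Of all 47 immediate early genes, 12 rose and 0 fell, and their median log2 difference was 0.65, where the median of all tested genes was -0.006. Of the 11 near lost bins, 2 rose, with a median of 0.91. Of the near members of the glutamate receptor, synaptic adhesion, interferon and glucocorticoid lists, 0 passed in intact mice. Choroid plexus markers summed to 164 to 280 CPM in trained and 321 to 383 CPM in untrained mice (median log2 difference -0.66). Dentate granule markers summed to 88.5 to 157 against 35.9 to 110 CPM (median 1.09), and 0 genes of either list passed. The other marker lists had medians of -0.20 to 0.11. The part of cell composition in the training differences was not tested.

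**Figure D5:**
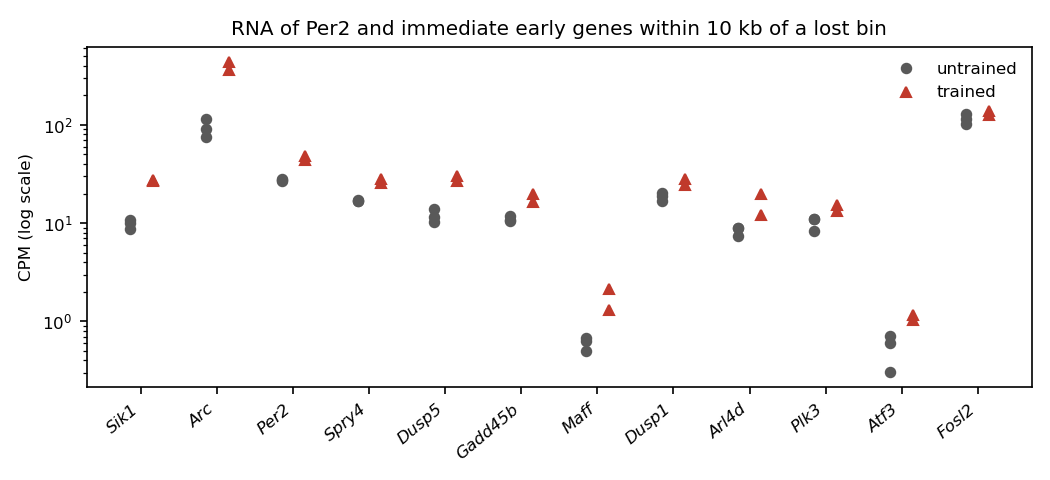
RNA level (y axis, CPM, log scale) of Per2 and the 11 immediate early genes within 10 kb of a lost bin (x axis) in intact mice, circles for the 3 untrained and triangles for the 2 trained mice (1 h), 1 point a mouse. Arc is the highest in trained mice, at 431 and 365 CPM against 74.4 to 115, and Fosl2 shows overlapping groups.

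The genes called in intact mice differed in what lay over their lost bins. Arc had 10 lost bins within 10 kb, among them a run of 7 at chr15:74664001-74671000 that reaches into the gene (chr15:74669083-74672570). Of the 10, mH2A2 at 30 min covered 10, 10 and 9 in untrained and 9 and 0 in trained mice. The mH2A1 libraries covered 7 and 5 in untrained and 10 and 8 in trained mice at 1 h, and 7 to 10 in both groups at 6 h. None of the 4 lost bins of Per2 was covered by mH2A1 in any of the 14 libraries of 1 h and 6 h. Of the 2 of Sik1, each of those libraries covered 1 or 2.

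In mice injected with shScr, 0 of the 4162 tested genes near lost bins passed for training with edgeR (adjusted p below 0.05, change of more than 1.2 times), as did 0 of all 15424 (0%). Without adjustment 386 near genes and 1382 of all genes were below 0.05, and DESeq2 called 69 near genes (1.4%, against 1.16% of all). Arc was at 49.2, 81.0 and 103 CPM in untrained and 235, 121 and 269 CPM in trained mice (log2 difference 1.42, adjusted p = 0.343). Its groups did not overlap, but the trained values spread widely. In the libraries labelled shH2afy, Arc was at 23.3, 21.3 and 15.5 CPM untrained and 37.3, 27.8 and 35.1 CPM trained (0.74, adjusted p = 0.998). There edgeR called 0 of 4304 near genes (0% of all 15866), with 203 near and 613 of all genes at an unadjusted p under 0.05, and 18 near genes called by DESeq2 (0.361%, against 0.201% of all). The difference between the training effects was tested as an interaction, and edgeR called 0 of 4343 near genes (0% of all 15997), with 111 near and 333 of all genes at an unadjusted p under 0.05 and 0 of either by DESeq2. The median interaction on the log2 scale was -0.50 for the 11 near immediate early genes and -0.34 for all 47, against -0.01 over all genes.

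H2afy itself, the target of the shRNA, had 81.7, 82.5 and 79.2 CPM with shScr and 87.0, 87.7 and 87.7 CPM in the untrained libraries labelled shH2afy, so it was not lower there (log2 difference 0.13, adjusted p = 0.0868). In these counts this goes against the label, and directions below are those of the libraries as labelled. According to the study's methods, reads of this experiment were counted over the whole transcript after ribosomal RNA was depleted. The part of this counting in the H2afy value was not tested. The study reported that its H2afy shRNA lowered H2afy mRNA and mH2A1 protein in infected tissue. Untrained libraries labelled shH2afy differed from those with shScr in many genes. Of the 4284 near genes tested, 1455 were higher and 551 lower in the libraries labelled shH2afy, or 46.8%, where 43.7% of all tested genes were called (25.2% higher, 18.5% lower). Near kept but not lost bins 51.4% were called, and near none of the sets 40.6%. Arc was lower (-1.93, adjusted p = 0.00122), as was Spry4, while Atf3 (4.35), Maff (2.23), Gadd45b (1.19), Dusp1 (1.06) and Sik1 (0.53) were higher, by log2 difference. So of the 11 near immediate early genes 5 were higher and 2 lower. All 16 tested interferon-response genes were higher (median 2.13), as were all 9 microglia markers (median 1.97), and the summed level of these markers was 300.1 to 375 CPM with shScr and 1272 to 1857 CPM in the libraries labelled shH2afy. Of the 7 CA1 markers 4 were lower and 0 higher (median -0.99). Among the 37 synaptic adhesion genes 25 were lower and 1 higher (median -0.55). Of the 7 astrocyte markers 4 were higher and 2 lower (median 0.42). The part of microglia and of other cell types in these differences was not tested.

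In the depletion experiment, H2afy was at 60.7, 59.2 and 50.6 CPM with shScr and 43.5, 44.5 and 38.7 CPM with shH2afy (log2 difference -0.37, adjusted p = 0.0310, which misses 0.01). The genes near lost bins that differed were mostly higher. With adjusted p below 0.01 and a change of more than 2 times, edgeR called 725 of 4075 near genes (657 higher, 68 lower), or 17.8%, where 11.7% of all 16179 tested genes were called (10.5% higher, 1.2% lower). The share was 22.9% for genes near kept but not lost bins, 16.5% for genes with 5 or more lost bins and 7.35% for genes near none of the sets. Genes near none were also expressed at a higher median level (log2 CPM 4.78, against 4.06 near lost bins). With the replicate number as a block 448 near genes were called (11.0%, against 7.08% of all). Leaving out 1 library moved the count to between 387 and 901, with the lowest counts without shH2afy replicate 1 (387, or 9.19% against 5.65% of all), shScr replicate 3 (427, or 9.99% against 6.42%) and shScr replicate 2 (441, or 10.5% against 6.54%). The highest was without shH2afy replicate 3 (901, or 21.2% against 14.1%).

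The near genes that were higher included genes of inflammation. Lcn2, an iron-binding protein of the acute phase, was at 0.069, 0.127 and 0.102 CPM with shScr and 153, 159 and 92.6 CPM with shH2afy (log2 fold change 10.35). Irf7, a regulator of interferon genes, went from 1.17, 0.823 and 1.43 to 139, 142 and 78.5 CPM (6.81). Cd74, which escorts MHC class II molecules, was at 3.80, 0.950 and 1.23 against 876, 1601 and 64.5 CPM (8.77); it varied widely within the group and was at 634 CPM in 1 of the 3 shH2afy2 libraries. All 17 interferon-response genes were higher (median 5.69), among them the 9 near lost bins. So were all 9 microglia markers (median 2.63), whose summed level was 347 to 529 CPM with shScr, 2206 to 4383 CPM with shH2afy and 536 to 1067 CPM with shH2afy2. None of the markers was at 0 in any library, and their part in the result was not tested.

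Of the neuronal markers near lost bins, 1 of 3 for CA1 neurons (Mpped1), 1 of 3 for inhibitory neurons (Pvalb) and 0 of 5 for CA2 and CA3 neurons were lower. The 1 for dentate granule neurons was not called (log2 difference 0.98). Over the whole marker lists the median log2 difference was -0.9996 for CA1, -0.96 for inhibitory, -0.27 for CA2 and CA3 and 0.81 for dentate granule neurons. Epop, a partner of polycomb repressive complexes, was at 67.8, 63.3 and 55.7 CPM with shScr and 10.9, 15.0 and 16.5 CPM with shH2afy (-2.07). Pvalb, the calcium-binding protein of fast-spiking interneurons, went from 40.8, 44.1 and 37.5 to 9.12, 14.8 and 11.7 CPM (-1.71). Mpped1, a CA1 marker with 11 lost bins within 10 kb, went from 453, 264 and 309 to 73.1, 131 and 116 CPM (-1.62), and Ankrd63 from 66.1, 30.1 and 72.5 to 6.76, 10.5 and 9.57 CPM (-2.59). The summed level of the 7 CA1 markers was 1166 to 2327 CPM with shScr and 698 to 1030 CPM with shH2afy.

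With shH2afy2, which shares its shScr libraries with the previous comparison, 0 of the 3874 near genes were called by edgeR (0% of all 15609), with 794 near and 3238 of all genes at an unadjusted p under 0.05, and 45 near genes called by DESeq2 (0.611%, against 0.358% of all). H2afy2, the target, was at 18.2, 19.0 and 18.2 CPM with shScr and 13.3, 8.21 and 7.74 CPM with shH2afy2, without overlap (log2 difference -0.95, adjusted p = 0.0907). Irf7 was at 15.5, 18.1 and 3.64 CPM (log2 difference 3.44, adjusted p = 0.0739).

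The genes of both variants had lost bins of their own. The 5 lost bins within 10 kb of H2afy were covered in none of the 14 mH2A1 libraries of 1 h and 6 h, while mH2A2 at 1 h covered all 5 in each untrained and 4, 2 and 5 in trained mice. At 30 min mH2A2 covered 0, 5 and 4 in untrained and 5 and 4 in trained mice. The 3 of H2afy2 were covered by mH2A2 at 30 min in full in all untrained mice and to 3 and 1 in trained mice. The RNA of H2afy and H2afy2 was not called for training in intact mice (log2 differences of -0.003 and -0.17, adjusted p = 0.978 and 0.383).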

How the data were processed

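ChIP-seq and RNA-seq libraries of mouse CA1 were analysed from the files the authors deposited. For ChIP, the authors aligned reads to mm10 with Bowtie2 and called broad domains against input at an FDR under 0.05, with epic2 according to the study's methods and SICER according to the labels. The deposited lists give per domain the ChIP and input read counts, a p-value, a log2 ratio and a score of 100 times that log2, and only positions, counts and log2 were used. For RNA, the authors aligned with STAR and deposited featureCounts read counts per gene, which in the training experiment covered whole transcripts.

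Members and gene lists were chosen with earlier results of these data known. Shares of bins were compared with exact two-sided permutation tests over libraries (scipy 1.17.1), adjusted by Benjamini-Hochberg over 4 data sets. RNA was fitted with edgeR 4.0.16 (R 4.3.3, quasi-likelihood, TMM), Benjamini-Hochberg adjusted over all genes tested, with DESeq2 1.42.0 as an alternative; scripts were tested on simulated data. Named are the 10 longest runs, the 10 genes with most lost bins, called near genes, near immediate early genes and up to 8 further near genes a direction. Sequences and genes came from GRCm38 with GENCODE. The sequence of 1 further long run is not reported here. RNA libraries held 48.8 to 58.6 M counted reads (intact), 81.4 to 92.2 M (training) and 9.95 to 18.8 M (depletion), and ChIP libraries 12.2 to 44.5 M reads in domains. Within a comparison each library is a separate mouse by its label. Some mouse numbers are given both to 6 h ChIP and to training RNA libraries, which were not treated as the same animals. The RNA contrast in which every same-numbered pair correlated above 0.1 was shScr training (0.169, 0.169 and 0.229), where the block changed no call; in shH2afy training 2 of 3 pairs did (0.412 and 0.298, the other -0.123).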

Additional observations from a re-analysis of the deposited data

How the results depend on the processing

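The number of lost bins, 24534, was 10 with domains of log2 of at least 1, 11831 at equal coverage and 43402 to 57264 without 1 library. Restricting to log2 of at least 1 turned the mH2A2 difference at 30 min to 36.7 points (ratio 0.188) and that at 1 h to 6.67, and could not give a ratio for mH2A1; the few bins left follow from this restriction. At equal coverage the trained minus untrained difference of the mH2A2 share at 1 h was 0.941 points and that of the mH2A1 ratio to kept bins at 6 h 0.00579. Within 46 to 50% GC, an alternative chosen after seeing the data, the difference of the mH2A2 ratio at 1 h was -0.00229 and that of the mH2A1 ratio at 6 h 0.00328. Their cause was not tested.

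Without 1 library, the share differences ranged from -38.8 to -13.8 (mH2A2, 30 min), -7.74 to 2.33 (mH2A2, 1 h), -0.450 to 8.80 (mH2A1, 1 h) and -2.41 to -0.723 (6 h), and the differences of the ratios from -0.344 to -0.131, -0.0431 to 0.0668, 0.0102 to 0.107 and -0.00701 to 0.00299. With libraries of the same replicate number taken as pairs, the shares differed by -25.3, -2.06, 4.17 and -1.66. An exact sign-flip test over these pairs gave p = 0.500, 1, 1 and 0.3125. For mH2A2 at 30 min this left out untrained replicate 3, and 0.500 is the smallest p that 2 pairs can give.

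Near genes called in intact mice numbered 3. DESeq2 called 110 (2.11%, against 2.39% of all tested genes) and a fit with no filter 11 (0.21%, against 0.26%). There were 0 with the replicate block (0% of all) and 0 to 128 without 1 untrained library (128 being 3.17%, against 2.68%). DESeq2 gave 69 for shScr training (0 to 1 without 1 library), 18 for shH2afy training and 45 for mH2A2 depletion. For mH2A2 depletion no filter gave 115 (1.56%, against 0.923% of all) and leaving out 1 library 0 to 1. With shH2afy against shScr, 2006 near genes were called, 1319 of the 2605 tested with a lost bin in the body (50.6%) and 1152 of the 2434 with one near the start (47.3%), 1888 with the block and 1699 to 2112 without 1 library. For mH2A1 depletion, with 725 called, these were 482 of 2397 (20.1%), 447 of 2326 (19.2%), 448 and 387 to 901.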
